A study of Prunus dulcis and Prunus persica with 12 samples.

Results

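The *Vr3* region of chromosome 2, which holds a powdery mildew resistance locus of almond (*Prunus dulcis*), carries a pair of gene models annotated as putative aldehyde oxygenase (deformylating). TexasF0_G8106 and TexasF0_G8110 are the 2 models with this annotation among the 28 that the study lists for the region, out of 29183 gene models in the deposited count table. The list uses the prefix TexasF1 and the count table TexasF0, and equal numbers were taken as the same gene. The pair was picked by annotation with its counts in flower, fruit and leaf already known. The difference between flower and fruit is therefore given as a description without a test.

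RNA-seq was made from almond cv. Texas, with 3 libraries of flowers at the pink stage and 3 of immature fruits, all from field trees that were normally watered. The submitters call the samples biological replicates, and whether they came from separate trees is not given in the sources used here. All values come from this heterozygous cultivar, and the 6 peach samples of cv. Early Gold and the leaf columns were not analysed here. The 6 almond libraries held between 40130120 and 54926220 reads on genes. The count table pairs identifiers with no gene names, so the organ labels could not be checked against marker genes.

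Aldehyde oxygenases of this kind are related to ECERIFERUM1 (CER1) of *Arabidopsis thaliana*, a membrane protein of the endoplasmic reticulum. CER1 acts with the related protein CER3 to turn very-long-chain aldehydes into alkanes, which are major components of the wax on the plant surface. In *Arabidopsis* the lipids of the pollen coat also depend on this pathway. Both almond models are annotated with the fatty acid hydroxylase domain and the WAX2 C-terminal domain and are assigned to cutin, suberine and wax biosynthesis. TexasF0_G8106 is further described as ECERIFERUM 1-like, whereas the match of TexasF0_G8110 is an uncharacterized peach protein.

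TexasF0_G8106 lies on the plus strand of chromosome 2 of Texas v.3.0, from position 16193758 to 16200588, and has no equivalent in the Texas v.2.0 annotation. Positions and gaps are those of the study's list, which uses the prefix TexasF1. TexasF0_G8110 lies on the minus strand from 16246332 to 16250205 and is the last of the 28 listed models. A gap of 45743 bp separates them, with 3 listed models in between. The span of TexasF0_G8106 (6831 bp) is longer than that of TexasF0_G8110 (3874 bp). Spans include introns, and transcript lengths were not used here. Levels of different genes are thus not compared with each other below.

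TexasF0_G8106 was read in all 6 libraries. It had 4791, 3358, and 4243 estimated reads in flower replicates 1 to 3, and 10, 8, and 37 in fruit replicates 1 to 3. Every flower library was far above every fruit library, and fruit replicate 3 was the highest of the fruit libraries. In CPM, the reads per 1000000 reads of the library after TMM scaling, the flower values were 109.7, 69.6, and 105, with a mean of 94.9 ± 22.0 (SD, n = 3). The fruit values were 0.192, 0.180, and 0.676 CPM. Exact 95% Poisson intervals, which cover counting error only, were 0.0922 to 0.354 CPM in fruit replicate 1 and 0.476 to 0.932 in replicate 3. The value of fruit replicate 3 was therefore higher than that of replicate 1 by more than counting error.

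TexasF0_G8110 had 8375, 10094, and 9045 reads in the flower libraries. In fruit it had 0 reads in replicates 1 and 2, and 106 in replicate 3. The flower libraries were close to each other, while the fruit group rested on a single library. In flower this made 192, 209, and 225 CPM (208.5 ± 16.4, SD, n = 3). Fruit replicate 3 reached 1.94 CPM, with a counting interval of 1.59 to 2.34. A count of 0 was taken to allow up to 3 reads per library, or 0.0577 CPM in fruit replicate 1 and 0.0674 in replicate 2 (the two-sided 95% Poisson interval reaches 0.0710 and 0.0829), so that absence from these libraries is not shown.

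**Figure D1:**
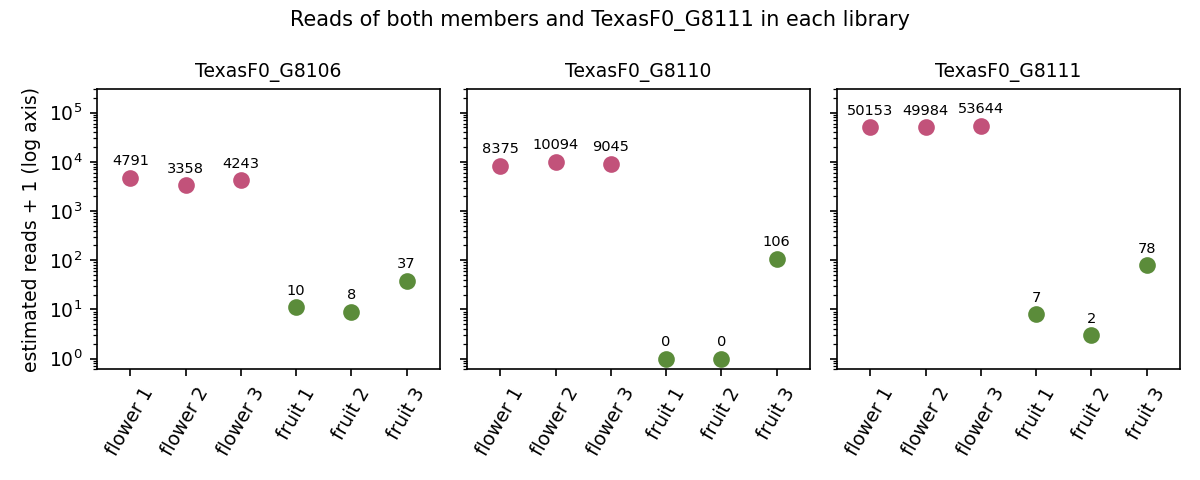
Estimated reads plus 1 on a log axis (y) in each of the 3 flower and 3 fruit libraries (x) for TexasF0_G8106, TexasF0_G8110 and the neighbouring model TexasF0_G8111, 1 point per library with its read number. Flower libraries lie between 3358 and 53644 reads and fruit libraries between 0 and 106, and fruit replicate 3 is the highest fruit library for each gene.

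The ratio of the mean flower level to the mean fruit level was 271.5 for TexasF0_G8106 and 323 for TexasF0_G8110. The lowest flower library still exceeded the highest fruit library 103-fold and 99.0-fold, respectively. In 32.7% of the tested genes every flower library lay above every fruit library, which is the background for this lack of overlap. The fitted log2 fold change was 8.04 for TexasF0_G8106 (standard error 0.52) and 8.28 for TexasF0_G8110 (standard error 1.35). A larger log2 fold change was fitted for 602 of the 19917 tested genes (3.02%) in the case of TexasF0_G8106 and for 568 (2.85%) in the case of TexasF0_G8110. Both genes passed the filter on low counts through the flower libraries alone. In bulk tissue, fewer cells that express a gene and less RNA per cell cannot be told apart.

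**Figure D2:**
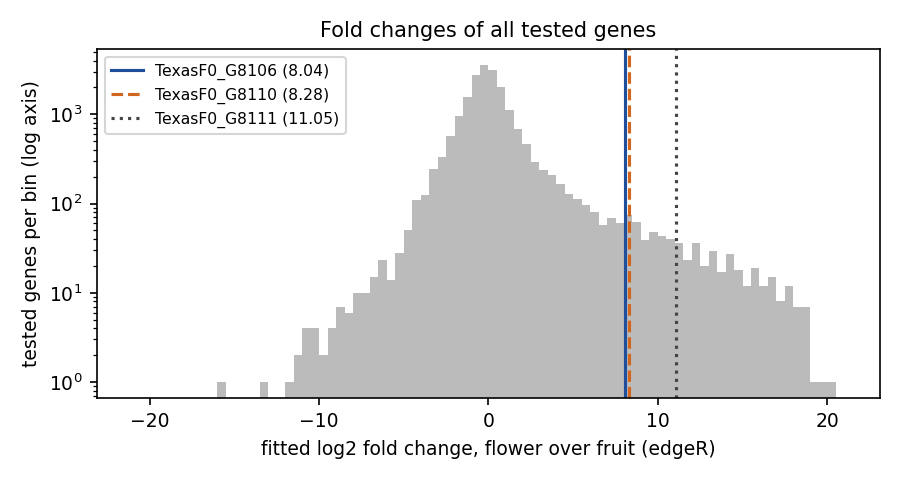
Number of tested genes (y, log axis) by fitted log2 fold change of flower over fruit (x, bins of 0.5) over 19917 genes, with vertical lines at the values of TexasF0_G8106, TexasF0_G8110 and TexasF0_G8111. The lines at 8.04 and 8.28 lie in the upper tail, and the line of TexasF0_G8111 at 11.05 lies further out.

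These ratios depended on fruit replicate 3. Without it, the ratio of the means rose from 271.5 to 510.1 for TexasF0_G8106. TexasF0_G8110 then had no read in fruit. With 3 reads set in each of the other 2 fruit libraries, the ratio of the flower mean to their mean was 3334. This is no strict lower bound, since the two-sided 95% interval of a count of 0 reaches above 3 reads. It also leaves out the spread between libraries. Relative to the mean of flower, fruit replicate 3 held 0.713% of the level of TexasF0_G8106 and 0.929% of that of TexasF0_G8110.

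The deposited regularized log values, a log2 scale on which low counts are shrunk, showed the same order. TexasF0_G8106 had 11.37 ± 0.352 in flower and 3.63 ± 0.851 in fruit (SD, n = 3). For TexasF0_G8110 the flower mean was 12.47 ± 0.132, and the fruit libraries were at 0.947, 1.18, and 5.96. The shrunken scale thus keeps the distance of fruit replicate 3 from the other fruit libraries.

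The replicates of flower varied more for TexasF0_G8106 than for TexasF0_G8110. The coefficient of variation was 23.2% for TexasF0_G8106, above that of 92.1% of the 11571 genes with a mean of at least 10 CPM in flower. It was 7.88% for TexasF0_G8110, close to the median of 9.04% over these genes. With 3 libraries, such values are imprecise and were not tested. The higher spread of TexasF0_G8106 came from flower replicate 2, which had 69.6 CPM.

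The share of each gene in the reads of the pair was computed for each flower library. TexasF0_G8106 took 36.4% of the reads of the pair in flower replicate 1 (95% Clopper-Pearson interval 35.6 to 37.2), 24.96% in replicate 2 (24.2 to 25.7) and 31.9% in replicate 3 (31.1 to 32.7). The 3 intervals do not overlap, but they cover counting error only. Flower libraries differed from each other by more than that over all genes, and whether the pair varied more than other genes was not tested. The summed reads of the pair were 13166, 13452, and 13288, which made 301.4, 279, and 329.9 CPM. Replicate 2 was thus the highest in reads and the lowest in CPM. RSEM divides reads that fit several transcripts by estimation, so near-identical stretches would make the split between both genes uncertain. How similar their transcripts are was not tested.

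In fruit, all reads of the pair came from TexasF0_G8106 in replicate 1 (10 of 10, interval 69.2 to 100%) and replicate 2 (8 of 8, interval 63.1 to 100%). Both intervals lie above all flower values. In replicate 3 the share was 25.9% (37 of 143 reads, interval 18.9 to 33.9), which overlaps the intervals of flower replicates 2 and 3. Of the fruit libraries, replicate 3 alone thus had reads of both genes, in a proportion found in flower.

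**Figure D3:**
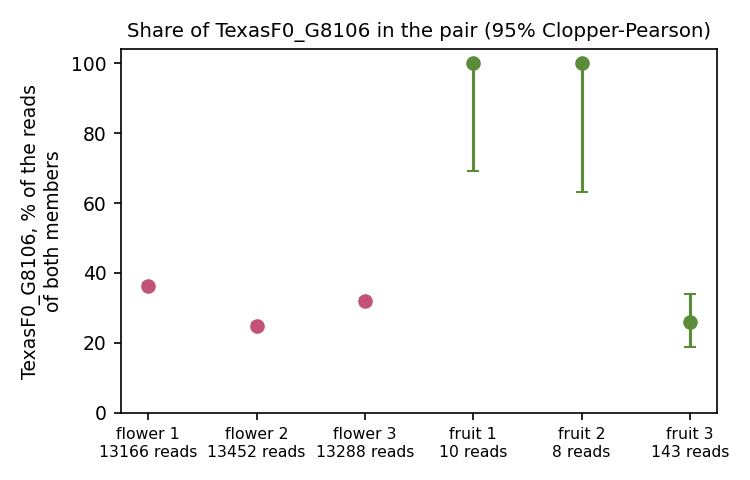
Share of TexasF0_G8106 in the reads of both genes (y, percent) in each library (x, with the number of reads of the pair), with 95% Clopper-Pearson intervals. Flower shares lie between 24.96% and 36.4%, fruit replicates 1 and 2 are at 100% from 10 and 8 reads, and fruit replicate 3 is at 25.9%.

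The following model in number, TexasF0_G8111, is not among the 28 listed models but is tied to TexasF0_G8110. The Texas v.2.0 model Prudul26A002752 is given as the equivalent of both. The RefSeq annotation of ALMONDv2 has 2 neighbouring protein-coding genes where this model lies, LOC117617786 and LOC117617785. TexasF0_G8111 has no annotation in the sources used here, and its role is not stated. It was included for its shared Texas v.2.0 model.

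TexasF0_G8111 had 50153, 49984, and 53644 reads in flower, and 7, 2, and 78 in fruit. Flower was far above fruit in this gene too, with fruit replicate 3 again the highest fruit library. Its flower level was 1172 ± 149.5 CPM (SD, n = 3), and fruit libraries were at 0.135, 0.0449, and 1.43 CPM. The fitted log2 fold change was 11.05 (standard error 1.13). Without fruit replicate 3, the ratio of the means rose from 2191 to 13060. TexasF0_G8110 took 14.3%, 16.8%, and 14.4% of the reads of both genes in flower replicates 1 to 3. In fruit replicate 3 this share was 57.6% (106 of 184 reads, interval 50.1 to 64.8), above all flower values. The reads of these neighbours in fruit replicate 3 were thus not in the proportion seen in flower. Where the reads of these genes in fruit replicate 3 came from was not tested.

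Genes read in flower and in a single fruit library were counted to place the 106 reads of TexasF0_G8110. With at least 10 CPM in all flower libraries and 0 reads in fruit replicates 1 and 2, 208 genes were found, and 30 of them (14.4%) had reads in fruit replicate 3, 1052 in sum. For fruit replicates 1 and 2, taken in the same way, 21 of 199 genes (10.6%) and 13 of 191 (6.81%) had reads, 73 and 53 in sum. Only in fruit replicate 3 did any of these genes reach 100 reads, and TexasF0_G8110 was 1 of the 3 that did. The highest had 518 reads. With at least 100 CPM in flower, the sum was 151 reads in fruit replicate 3, of which 106 were those of TexasF0_G8110, and 41 and 21 reads in fruit replicates 1 and 2. Most genes of this kind thus had no read in fruit replicate 3.

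A wider list, chosen after seeing the data, again took genes with at least 10 CPM in all flower libraries. These had to be at no more than 1% of their flower level in the mean of the 2 other fruit libraries. In fruit replicate 3 the list held 454 genes with a median of 0% of the flower level and an upper quartile of 0.274%. The upper quartile was 0.166% in fruit replicate 1 (429 genes) and 0.128% in replicate 2 (421 genes). In fruit replicate 3, 28.4% of its listed genes were higher than in both other fruit libraries, against 21.9% in replicate 1 and 18.1% in replicate 2. Of the 454 genes, 84.8% were below TexasF0_G8106 and 86.8% below TexasF0_G8110 in fruit replicate 3. TexasF0_G8106 was also above 77.4% of the listed genes in each of fruit replicates 1 and 2, so its place in the upper part was not particular to replicate 3.

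The listed models next to the pair, which do not include TexasF0_G8111, had few or no reads. TexasF0_G8107, described as a C-JID domain-containing protein, and TexasF0_G8108, described as a TIR domain-containing protein, lie between both genes and had 0 reads in all 6 libraries. TexasF0_G8109, annotated as a peroxidase, had 1 read in flower replicate 1 and 2 reads in fruit replicate 1. On the other side, TexasF0_G8105 ends 288 bp before TexasF0_G8106 on the opposite strand and is described as a zinc ion-binding protein. It had 20, 16, and 10 reads in flower and 0 in every fruit library, and was below the filter on low counts with all 6 libraries. DESeq2, run without this filter but with its own filtering on mean count, gave it a log2 fold change of 6.62 (adjusted p = 0.000183). In the 4 edgeR fits without 1 library in which it passed the filter, its adjusted p was between 0.00443 and 0.0121. It passed through its flower reads alone, and did not pass without flower replicate 1 or flower replicate 2. These p-values are thus no independent support. Fold changes of this gene were fitted against a group at 0 and are no bound.

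**Figure D4:**
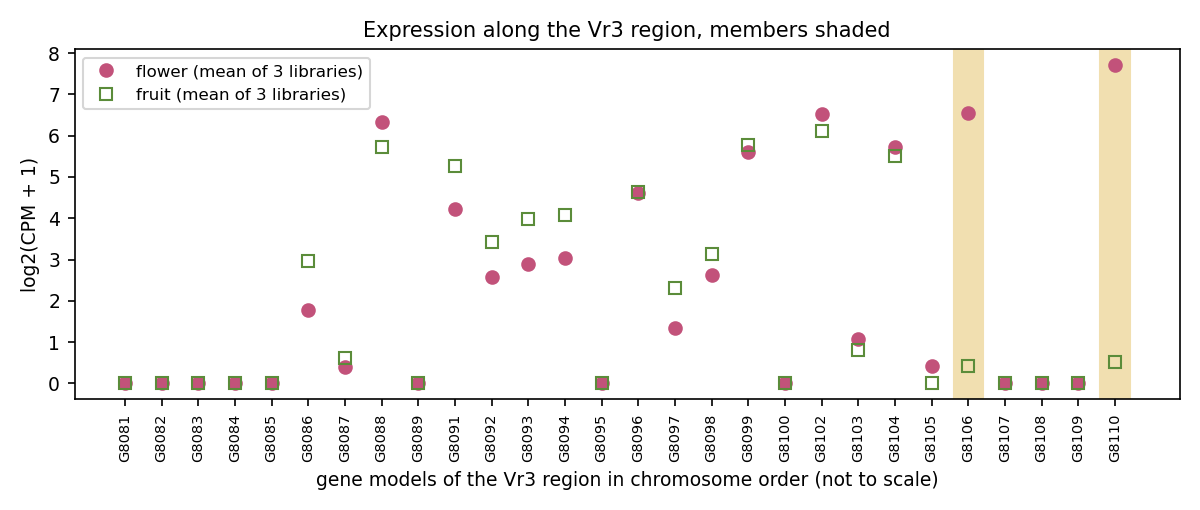
Mean log2(CPM + 1) of 3 flower (filled circles) and 3 fruit libraries (open squares) (y) for the 28 listed models of the *Vr3* region in chromosome order (x, not to scale), with the pair shaded. Points are to be compared between organs within a gene, since values are not per length, and in both shaded genes the flower point stands at more than 6 and the fruit point below 1.

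Of the other 26 models of the region, 14 were tested between flower and fruit and 8 had no read. In the quasi-likelihood test of edgeR, adjusted by Benjamini-Hochberg over all genes, 2 of the 14 were higher in flower (14.3%) and 5 in fruit (35.7%). Over all 19917 tested genes, 55.6% passed the threshold, 27.6% higher in flower and 28% higher in fruit. The log2 fold changes of the 14 models ranged from -1.44 to 0.63, with a median of -0.66 against -0.06 over all tested genes. Of these 14, none came near the values of the pair. Models higher in flower were TexasF0_G8088, an ABC-type xenobiotic transporter (log2 fold change 0.63), and TexasF0_G8102, annotated to riboflavin biosynthesis (0.41). Neither passed with upper-quartile factors or library totals in place of TMM, and with library totals the value of TexasF0_G8102 turned to -0.08. Both calls were also lost without flower replicate 1 or flower replicate 2, that of TexasF0_G8088 without fruit replicate 1 or 2, and that of TexasF0_G8102 without flower replicate 3 or fruit replicate 3. Models higher in fruit were the disease resistance models TexasF0_G8091, TexasF0_G8093 and TexasF0_G8097, together with TexasF0_G8086 and TexasF0_G8094, with log2 fold changes from -1.44 to -1.15. The disease resistance models are 3 of the 6 tested ones with such an annotation or description, and TexasF0_G8092, TexasF0_G8096 and TexasF0_G8098 did not pass (adjusted p = 0.15, 0.818, and 0.195 from edgeR). TexasF0_G8093 did not pass without flower replicate 3 (log2 fold change -1.05, adjusted p = 0.0647 from edgeR). TexasF0_G8097 overlaps the model TexasF0_G8098 on its strand, so the counts of both may be uncertain. Whether their transcripts share sequence was not tested.

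The gene most like each member was searched among 19916 tested genes, as the smallest root mean square difference of log2(CPM + 1) over the 6 libraries after centring each gene on its mean. For TexasF0_G8106 it was TexasF0_G12910 (difference 0.101 on the log2 scale). This gene had 7295, 5160, and 7296 reads in flower and 37, 27, and 84 in fruit. Like TexasF0_G8106, it was lowest in flower replicate 2 and highest among fruit libraries in replicate 3. The search compared these same libraries and so favoured a gene with this order, which is no separate observation. For TexasF0_G8110 it was TexasF0_G3417 (difference 0.204), with 37487, 46437, and 43016 reads in flower and 248, 241, and 659 in fruit. In fruit replicates 1 and 2, TexasF0_G3417 was at 4.77 and 5.41 CPM, whereas TexasF0_G8110 had 0 reads. Differences from TexasF0_G8110 thus depend on the 1 CPM added before taking logs. The files pair neither TexasF0_G12910 nor TexasF0_G3417 with a gene name. The members of the pair were 0.670 apart, and 262 genes were nearer to TexasF0_G8106 than TexasF0_G8110 was. Conversely, 95 genes were nearer to TexasF0_G8110 than TexasF0_G8106 was. These orders rest on 6 libraries that mainly separate flower from fruit.

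Reads of the P0 and P1 alleles were deposited for genes with informative coding SNPs. Neither gene of the pair is in this table, nor is any of the 28 models of the region. Among the 7425 genes with at least 1000 reads in every flower library, which include both genes, 2393 (32.2%) are in it. Allelic ratios of the pair could therefore not be measured here.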

How the data were processed

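The authors used Bowtie2 to map reads to transcript models and RSEM to quantify them, and the deposited expected counts per gene are whole numbers used as given. The authors also deposited regularized log values of DESeq2 on the log2 scale, and counts of P0 and P1 allele reads per gene, of which only the identifiers were used. The versions of the authors' tools are not given in the sources used here. No sample of the series matches the 18 leaf columns, which were left out. Column names state no species and were taken as almond from the Texas identifiers.

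Counts of 6 libraries were fitted in R 4.3.3 with edgeR 4.0.16 (quasi-likelihood test, TMM, filterByExpr, no block) and adjusted by Benjamini-Hochberg over all genes, with a threshold of 0.05. DESeq2 1.42.0 was an alternative. Standard errors are the log2 fold change over the square root of the F statistic. Intervals were computed with scipy 1.17.1. On simulated data with 19792 genes the model called 55 of 100 genes changed 2-fold and 100 of 100 changed 16-fold, with 5 unchanged genes called. No 2 libraries agreed within sampling noise (chi-square divided by its degrees of freedom between 39.8 and 176.4 for pairs of replicates).

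The pair, the gene lists and the tests were chosen with earlier results of these data known. Named genes were the pair, the models next to it or called in the region, TexasF0_G8111 and the most similar gene to each member. The wider list of flower genes was added after seeing the data.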

Additional observations from a re-analysis of the deposited data

How the results depend on the processing

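TexasF0_G8106 and TexasF0_G8110 were higher in flower under every alternative run. Their log2 fold changes, 8.04 and 8.28 with TMM, were 7.55 and 7.81 with library totals alone, 8.13 and 8.41 with DESeq2, and 7.75 and 9.77 as differences of the deposited regularized log values. With the replicate number as a block, they were 8.18 and 9.41. Leaving out each library gave 7.73 to 8.97 and 7.70 to 16.22. The highest values were those without fruit replicate 3, and 16.22 was fitted against 2 libraries at 0 and is no bound. The share of TexasF0_G8106 in the pooled flower reads of the pair was 31.0% and moved between 28.4% and 34.2%.

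Genes called numbered 11068, with 49.6% of them higher in flower, and 12548 with library totals, with 28.7% higher in flower. Library totals moved the median log2 fold change of all tested genes by -0.49 and upper-quartile factors by -0.15. The block gave 10208 genes, and in the region 6 models higher in fruit and 0 in flower, with TexasF0_G8088 and TexasF0_G8102 lost (adjusted p = 0.0862 and 0.0843 from edgeR) and TexasF0_G8092 gained (0.0485). Whether replicate numbers pair the samples is not known. Deviations of same-numbered flower and fruit libraries correlated at 0.058, -0.2, and 0.131 across genes, and those of differently numbered ones at -0.253 to 0.196. With 3 libraries per organ, these values cannot decide it. Leaving out a library gave 8855 to 11547 genes and 5 to 8 models of the region, where 7 were called. With at least 100 CPM in flower in place of 10, 14 genes in place of 30 had reads in fruit replicate 3 alone among fruit libraries, since fewer genes qualified. The tests of allelic ratios were not run, as neither gene is in the allele table.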
